A study of Mus musculus with 6 samples.

Results

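Genes of sterol and fatty acid synthesis were followed in mouse germ cells made in culture, with and without knockdown of Dazl, a germ cell gene for an RNA-binding protein. The set held 32 named genes, all of them measured, among 20234 genes in all: 18 sterol enzymes, 6 genes that regulate or carry sterols, and 8 fatty acid enzymes. They were found by gene symbol or an older symbol on the array, and a probe was kept if the scanner software called its signal well above background on 2 or more of the 6 arrays. Of 62 probes for these genes, 60 were kept, and the brightest probe of each gene was well above background on all 6 arrays. No member passed the adjusted threshold of 0.05 in any comparison below, so the differences are given as values.

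The cells came from male Oct4-GFP embryonic stem cells of a mixed C57BL/6 and 129SV background, differentiated on gelatin after most feeder cells had been removed. They carried a vector with a short hairpin RNA against Dazl (hairpin 1 or hairpin 2) or a control vector, each with the red marker tdTomato, and cells with both colours were sorted at day 12 or day 9. The hairpins are numbered as in the sample titles, while the names of the deposited scanner files number them 2 and 3 at both days. Each vector gave 1 array at each day, so there were 4 knockdown arrays and 2 control arrays. The GFP transgene follows Oct4 (Pou5f1), which germ cells share with undifferentiated stem cells, and no label states that samples were grown as separate cultures, so the spread behind each p-value may be technical. In sorted populations, fewer cells of a type and less RNA per cell cannot be told apart.

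Cells build cholesterol from acetyl-CoA through mevalonate, isoprenoids, squalene and lanosterol. When membranes run low in sterol, the carrier protein SCAP moves the SREBP transcription factors to the Golgi, where they are cut and freed to switch on the sterol and fatty acid enzymes, and INSIG proteins hold them back when sterol is plentiful. Fatty acids branch off from the same acetyl-CoA and are then lengthened and given double bonds. In zebrafish and Drosophila, the mevalonate route is known to be needed for the migration of primordial germ cells.

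The promoters of sterol enzymes are known for CCAAT boxes, bound by NF-Y, a partner of the SREBP factors. The letters CCAAT, or ATTGG on the other strand, were in the windows of 14 of 15 sterol enzyme genes with an entry (14 of 18 windows, 77.8%), against 37.4% of all 32851 windows. A window ran from 250 bases before the start to 50 after it. For the fatty acid enzymes the letters were in 2 of 5 windows (40.0%), and Scd1, Scd2 and Fads1 had no entry. GGGCGG or its reverse complement CCGCCC, the letters of an Sp1 box, was in 83.3% of the sterol enzyme windows, 40.0% of the fatty acid windows and 35.7% of all windows. CACNCCAC or its reverse complement GTGGNGTG, a form of the sterol element, was in 11.1% of the sterol enzyme windows and 6.24% of all windows. The E-box letters CACGTG were in 16.7% and 7.15%. Neither this form of the sterol element nor the E-box letters were in any of the 5 fatty acid windows. Each motif was searched on both strands, CACGTG reads the same on both, matches of different motifs can share letters at their ends, and a match describes letters and not a bound site. The 180 bases before the start are shown for 6 sterol enzymes, namely the 4 that differed most between knockdown and control, the early enzyme Hmgcs1, and Idi1, which isomerises the isoprenoid unit. They are from RefSeq, build GRCm38.p6, read 5′ to 3′ on the strand of the gene, with CCAAT and ATTGG in capitals. The windows lie at chr8:64733579-64733758 (minus strand) for Msmo1, chr19:6067851-6068030 (minus strand) for Tm7sf2, chr8:122443423-122443602 (minus strand) for Mvd, chr1:169969206-169969385 (minus strand) for Hsd17b7, chr13:8885426-8885605 (plus strand) for Idi1 and chr13:119690171-119690350 (plus strand) for Hmgcs1.
Msmo1: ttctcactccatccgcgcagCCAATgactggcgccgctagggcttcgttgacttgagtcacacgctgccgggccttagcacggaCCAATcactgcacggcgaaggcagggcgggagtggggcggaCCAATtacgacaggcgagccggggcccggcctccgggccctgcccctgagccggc
Tm7sf2: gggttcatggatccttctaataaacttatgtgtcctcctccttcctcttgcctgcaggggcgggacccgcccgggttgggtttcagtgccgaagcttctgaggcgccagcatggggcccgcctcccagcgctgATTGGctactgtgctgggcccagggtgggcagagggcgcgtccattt
Mvd: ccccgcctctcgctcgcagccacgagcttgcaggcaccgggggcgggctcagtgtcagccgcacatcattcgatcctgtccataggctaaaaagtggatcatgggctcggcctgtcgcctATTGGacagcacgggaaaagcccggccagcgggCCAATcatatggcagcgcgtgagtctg
Hsd17b7: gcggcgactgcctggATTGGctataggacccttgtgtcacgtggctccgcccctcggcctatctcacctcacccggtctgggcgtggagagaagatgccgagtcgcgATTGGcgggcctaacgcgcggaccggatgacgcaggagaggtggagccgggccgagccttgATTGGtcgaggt
Idi1: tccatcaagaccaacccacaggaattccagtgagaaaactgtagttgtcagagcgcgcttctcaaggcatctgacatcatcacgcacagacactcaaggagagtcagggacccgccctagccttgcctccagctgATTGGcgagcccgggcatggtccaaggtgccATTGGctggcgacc
Hmgcs1: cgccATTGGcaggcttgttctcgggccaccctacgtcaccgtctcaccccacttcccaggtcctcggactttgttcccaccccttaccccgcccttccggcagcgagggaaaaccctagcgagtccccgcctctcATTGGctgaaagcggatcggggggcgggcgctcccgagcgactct
Msmo1 and Hsd17b7 had 3 such boxes each in these stretches, Mvd, Idi1 and Hmgcs1 had 2 each, and Tm7sf2 had 1. By the brightest probes, Msmo1, Tm7sf2 and Mvd were higher on all 4 knockdown arrays than in the control of the same day. Hsd17b7 was lower on all 4, while Idi1 and Hmgcs1 had pair differences of both signs.

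All levels below are log2 signals relative to the 75th percentile of the array, so 0 is that percentile and a difference of 1 is a factor of 2. The percentile was 636 to 745 on the knockdown arrays and 629 and 700 on the control arrays, and 70.3% to 73.3% of probes were well above background. Dazl itself stood at -2.24 and -1.84 with hairpins 1 and 2 at day 12, against 2.58 in the control, and at -3.05 and -2.28 at day 9, against 1.32 in the control. The array of hairpin 2 at day 9 stood apart: its correlation with the others was 0.9824 to 0.9871, where each of the other arrays reached at least 0.9924 with another. Each day had a slide and a scan of its own, and each vector sat at the same place on either slide, so effects of day and slide, or of vector and place, cannot be told apart. All 9 germ cell markers checked were well above background on all 6 arrays, as were all 7 markers of pluripotent cells.

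Of the fatty acid enzymes, Scd1, Scd2 and Elovl6 had the largest fitted knockdown differences. They were higher with both hairpins at both days, by 0.91, 0.78 and 0.48 on the log2 scale. Scd1 (NM_009127, chromosome 19) encodes a stearoyl-CoA desaturase, which puts the double bond into saturated fatty acids. At day 12 its level was 0.33 and 0.28 with hairpins 1 and 2, against -0.45 in the control, and at day 9 it was 1.25 and 1.94, against 0.52 in the control. The groups did not overlap within a day. Over both days Scd1 averaged 0.95 ± 0.80 on knockdown arrays (SD, n = 4) and 0.03 ± 0.68 on control arrays (SD, n = 2), where the SD holds the step between the days as well. The fitted difference, with day as a term, was 0.91 (SE 0.22, 1.89-fold, limma adjusted p = 0.320).

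Scd2 (NM_009128, chromosome 19), the paralog that is abundant in embryonic and neural tissue of the mouse, gave the same picture. At day 12 it stood at 4.01 and 3.97 with hairpins 1 and 2, against 3.25 in the control, and at day 9 at 4.73 and 5.04, against 4.06 in the control. Its 4 pair differences lay between 0.67 and 0.98, and its fitted difference was 0.78 (SE 0.15, 1.72-fold, adjusted p = 0.237), the smallest adjusted p of the 32 members in this comparison. Scd1 and Scd2 are close relatives in sequence, and how far their probes read each other's transcript is not known here. Elovl6 (NM_130450, chromosome 3), the elongase that turns palmitate into stearate, stood at 3.81 and 3.60 at day 12 with hairpins 1 and 2, against 3.16 in the control. At day 9 it stood at 4.03 and 3.95, against 3.57 in the control, and the fitted difference was 0.48 (SE 0.14, adjusted p = 0.379). Every knockdown array lay above the control array of its day for these 3 genes, which were picked for their large differences. Over all genes, 16.3% were higher in all 4 pairs.

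**Figure D1:**
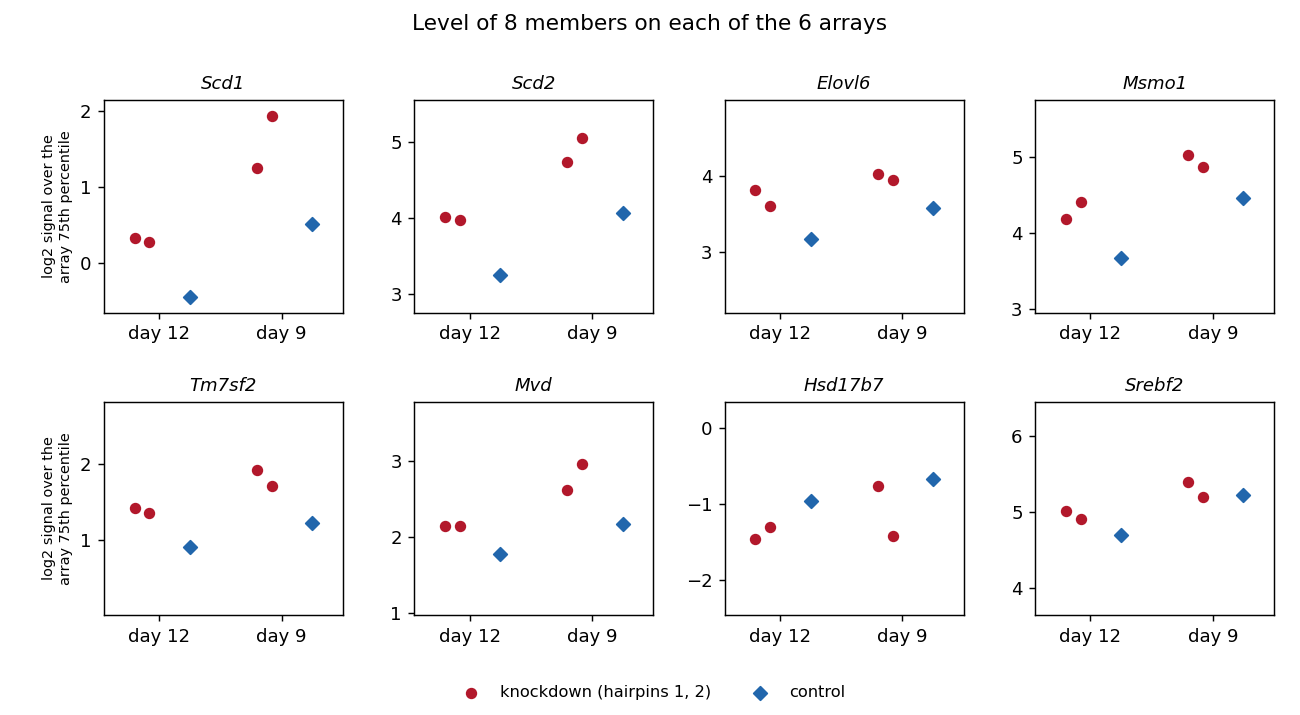
Level of 8 members on each array, as log2 signal over the 75th percentile of the array (vertical axis, with the same span in every panel), with knockdown arrays as circles (hairpin 1 left of hairpin 2) left of the control array as a diamond, and day 12 left of day 9. Scd1, Scd2, Elovl6, Msmo1, Tm7sf2 and Mvd were higher on every knockdown array than on the control array of that day, and Hsd17b7 was lower.

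The other 5 fatty acid enzymes had smaller fitted differences, and their pairs did not all share a sign or were uneven in size. Fads1 and Fads2, the desaturases of polyunsaturated fatty acids, had fitted differences of 0.38 and 0.24, Acly, which makes cytosolic acetyl-CoA from citrate, 0.08, Fasn, the fatty acid synthase, 0.08, and Acaca, the acetyl-CoA carboxylase that commits carbon to fatty acids, 0.04. In Fads1 that difference came with a pair difference of 1.30 for hairpin 2 at day 9, beside 0.07 for hairpin 1 at day 9 and 0.16 and -0.03 for hairpins 2 and 1 at day 12. By the brightest probes, all 8 fatty acid enzymes had a positive fitted difference. Their median was 0.31 beside -0.001 over all genes, where 49.8% were positive. The sign of Acaca depended on the probe: the dimmer probes gave -0.29, 0.11 and -0.50, the last on a faint probe at -7.37 to -5.72. With the mean of probes, 7 of the 8 were positive, and the median was again 0.31. Without the array of hairpin 2 at day 9 the median was 0.064, and 7 of the 8 were positive. Without the control of day 9, when the comparison rests on day 12, the median was 0.043, and 5 of the 8 were positive.

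Among the sterol enzymes, 16 of 18 had a positive fitted difference, with a median of 0.31, and the range ran from -0.42 to 0.56. Msmo1 (NM_025436, chromosome 8), a sterol methyl oxidase that takes part in the removal of methyl groups from the sterol ring, differed most. At day 12 it stood at 4.18 and 4.41 with hairpins 1 and 2, against 3.67 in the control, and at day 9 at 5.03 and 4.87, against 4.46 in the control. The groups were apart at each day, and the fitted difference was 0.56 (SE 0.15, 1.47-fold, adjusted p = 0.351). Tm7sf2 (NM_028454, chromosome 19), a sterol reductase of the endoplasmic reticulum, stood at 1.43 and 1.36 at day 12, against 0.92 in the control, and at 1.92 and 1.72 at day 9, against 1.22 in the control. Its fitted difference was 0.54 (SE 0.14, adjusted p = 0.349). Mvd (NM_138656, chromosome 8), which turns mevalonate diphosphate into the isoprenoid unit, stood at 2.14 and 2.15 at day 12, against 1.78 in the control, and at 2.62 and 2.97 at day 9, against 2.17 in the control. Its fitted difference was 0.49 (SE 0.16, adjusted p = 0.431), again with no overlap within a day.

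Hsd17b7 (NM_010476, chromosome 1), the ketosteroid reductase that acts in the same demethylation steps as Msmo1, went the other way. At day 12 it stood at -1.45 and -1.30 with hairpins 1 and 2, against -0.96 in the control, and at day 9 at -0.76 and -1.42, against -0.66 in the control. The fitted difference was -0.42 (SE 0.21, adjusted p = 0.571). The dimmer Hsd17b7 probe had -0.28, but hairpin 2 at day 9 was at -1.71 there, against -1.91 in the control. Over the 913 genes of chromosome 1 the median knockdown difference was -0.18, and the pair medians there were -0.16 and -0.09 at day 12 and -0.23 and -0.26 at day 9 for hairpins 1 and 2. Insig2, whose product retains SCAP in the endoplasmic reticulum, lies on the same chromosome and had a fitted difference of -0.18. The part of the chromosome in these 2 values was not tested.

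From the isoprenoid unit to squalene epoxide the fitted differences over both days were small, and they average differences of opposite sign. The knockdown difference was -0.36 at day 12 and 0.43 at day 9 for Fdps, -0.29 and 0.55 for Fdft1, -0.19 and 0.29 for Sqle, and -0.09 and 0.24 for Idi1. Over both days the fitted difference was 0.05 for Sqle, the squalene epoxidase, and 0.07 for Idi1, the isopentenyl diphosphate isomerase. It was 0.13 for Fdft1, the squalene synthase, and 0.04 for Fdps, the farnesyl diphosphate synthase. Dimmer probes gave 0.31 for Fdps, where every pair was positive, 0.77 for Fdft1 and -0.27 for Idi1. The dimmer Fdft1 probe was faint, at -7.74 to -5.28 over the 6 arrays. Hmgcs1, which makes the precursor of mevalonate, had 0.05, and Cyp51, the lanosterol demethylase, -0.13. Their signs depended on the probe: the dimmer probes gave 0.15 and 0.21 for Cyp51, and -0.48 and 0.33 for Hmgcs1. Mvk (0.32), Pmvk (0.31) and Acat2 (0.34), which act on mevalonate or feed acetyl-CoA into the route, were in the upper part of the list, together with Ebp (0.37), Dhcr7 (0.35), Nsdhl (0.34) and Lss (0.33) of the later steps, while Sc5d was at 0.08. For Pmvk, Lss, Dhcr7 and Acat2 all 4 pair differences were positive on the brightest probe. The dimmer Pmvk probe was positive in every pair as well. The dimmer Lss probes had fitted differences of -0.03 and 0.08 and lay below the control with both hairpins at day 12. The dimmer Dhcr7 probe had 0.42, but hairpin 1 at day 12 was at -1.54, against -1.43 in the control.

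Counted over the 32 members, 7 were higher in knockdown at an unadjusted p under 0.05 (Mvd, Tm7sf2, Msmo1, Dhcr7, Scd1, Scd2 and Elovl6) and 0 were lower. Over all genes 5.11% were higher and 4.84% lower at that threshold, and 0 genes (0%) passed the adjusted threshold in limma; fitted with vector as a replicate block, 20 genes passed it, none of them a member. By the brightest probe of each gene, 10 members were higher in all 4 pairs, beside 16.3% of all genes. Lower in all 4 were 2, Hsd17b7 and Scap, beside 17% of all genes. The pairs of a day share their control array, so they are not independent. Without hairpin 2 of day 9, 10 members were higher at an unadjusted p under 0.05 (8.93% of all genes), the sterol median was 0.18 and 13 of 18 sterol enzymes were positive. Without the control of day 9 the sterol median was 0.11, 11 of 18 were positive, and 2 members, Msmo1 and Scd2, had an unadjusted p under 0.05.

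**Figure D2:**
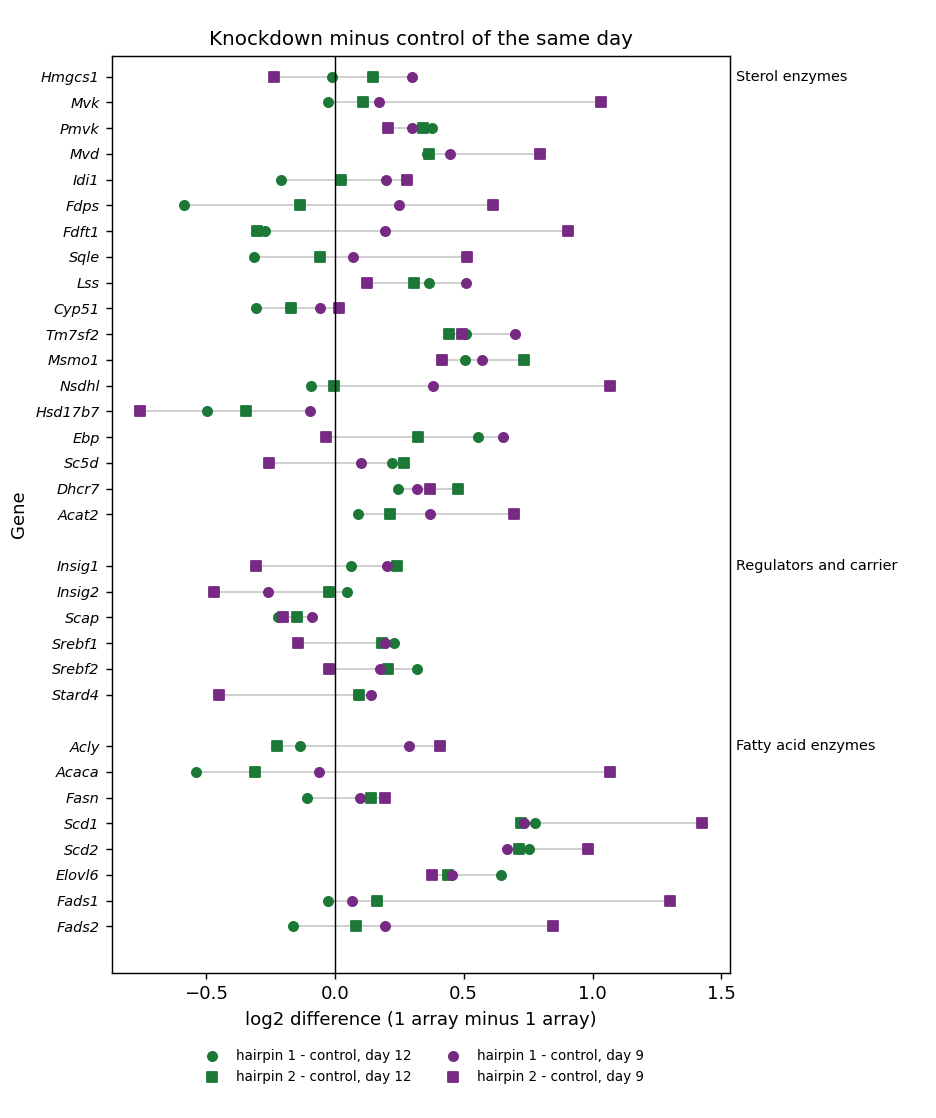
Log2 difference of each knockdown array from the control array of the same day (horizontal axis) for the 32 members in rows, with day 12 in green, day 9 in purple, circles for hairpin 1 and squares for hairpin 2. Scd1, Scd2, Msmo1, Tm7sf2 and Elovl6 have all 4 marks between 0.37 and 1.42, whereas Fads1, Acaca, Nsdhl and Mvk each have a mark above 1 that is hairpin 2 of day 9 alone.

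The regulators of the pathway, with a carrier of cholesterol, had a median fitted difference of 0.01, with 3 of 6 positive. Against the control of the same day their median was 0.08 with hairpin 1 and 0.14 with hairpin 2 at day 12, and 0.16 with hairpin 1 and -0.25 with hairpin 2 at day 9, where all 6 were below the control with hairpin 2. Srebf2, which encodes the SREBP factor of the sterol genes, stood at 5.02 and 4.91 with hairpins 1 and 2 at day 12, against 4.70 in the control, and at 5.40 and 5.20 at day 9, against 5.22 in the control (fitted difference 0.17, SE 0.14). Srebf1, whose product leans to the fatty acid genes, stood at 4.36 and 4.32 at day 12, against 4.14 in the control, and at 4.62 and 4.28 at day 9, against 4.42 in the control (0.12, SE 0.16). Insig1, itself a target of SREBP factors, stood at -0.85 and -0.67 at day 12, against -0.91 in the control, and at -0.20 and -0.71 at day 9, against -0.40 in the control (0.05, SE 0.19). At day 9 the control lay between the hairpins for all 3 genes on the brightest probe. On the dimmer probes of Srebf2 and Insig1, hairpin 2 lay above the control at day 9, for instance at 2.63 against 2.17 for Srebf2. On those of Stard4 and Insig2 it lay below the control. Insig2, which like Insig1 holds the factors in the endoplasmic reticulum, stood at 1.49 and 1.42 at day 12, against 1.44 in the control, and at 1.57 and 1.37 at day 9, against 1.83 in the control (-0.18, SE 0.16). Stard4, a carrier of cholesterol through the cytosol, had a fitted difference of -0.03, and a difference from the control of -0.45 with hairpin 2 at day 9. Scap had a fitted difference of -0.16.

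At day 12 alone the knockdown difference had a median of 0.11 for the sterol enzymes (0.04 with hairpin 1 alone, 0.18 with hairpin 2) and 0.04 for the fatty acid enzymes (-0.07 with hairpin 1, 0.15 with hairpin 2), beside 0.01 over all genes. At day 9 alone the median was 0.33 for the sterol enzymes (0.30 with hairpin 1, 0.39 with hairpin 2) and 0.51 for the fatty acid enzymes (0.24 with hairpin 1, 0.92 with hairpin 2), beside -0.02 over all genes. Both hairpins were above the control for 16 of 32 members at day 12 (39.1% of all genes) and for 20 of 32 at day 9 (28.8% of all genes). No member passed the adjusted threshold at either day or in the difference between the days (0% of all genes in each). When vector was a replicate block, 324 genes passed at day 12, 315 at day 9 and 63 in the difference, and no member was among them. At an unadjusted p under 0.05, Msmo1 and Scd2 differed at day 12 (5.09% of all genes), Tm7sf2, Scd1 and Scd2 at day 9 (4.31% of all genes), and no member in the difference between the days (1.72% of all genes).

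By their brightest probes, 5 enzymes were above the control with both hairpins at day 9 and below it with both at day 12. They were Fdps, Fdft1, Sqle, Nsdhl and Acly, and 5.63% of all genes had this pattern. The dimmer Fdps probe was above the control in every pair. Sqle stood at 2.02 and 2.28 with hairpins 1 and 2 at day 12, against 2.33 in the control, and at 2.71 and 3.16 at day 9, against 2.64 in the control. Fdft1 stood at 2.17 and 2.14 at day 12, against 2.44 in the control, and at 2.66 and 3.37 at day 9, against 2.47 in the control. Nsdhl, a sterol dehydrogenase on the X chromosome, was at -1.25 and -1.16 at day 12, against -1.16 in the control, and at -0.76 and -0.07 at day 9, against -1.14 in the control. For Nsdhl the day 12 gap of hairpin 2 from the control was -0.002. For all 3 the hairpin arrays fell more between the days than the control arrays did, which follows from the pattern by which these genes were picked.

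Between the days the direction was shared by nearly the whole set: 30 of 32 members were lower at day 12 than at day 9 in the fit, beside 49.6% of all genes. The exceptions were Pmvk (0.03) and Scap (0.16). Scd1 differed most, with levels at day 12 of 0.33, 0.28 and -0.45 with hairpin 1, hairpin 2 and the control vector, against 1.25, 1.94 and 0.52 at day 9. The days did not overlap, and the fitted difference, day 12 minus day 9, was -1.18 (SE 0.21, 2.27-fold lower, adjusted p = 0.112). Scd2 had 4.01, 3.97 and 3.25 at day 12, against 4.73, 5.04 and 4.06 at day 9, with a difference of -0.87 (SE 0.14, adjusted p = 0.102). With the vector as a replicate block the adjusted p was 0.0514 for Scd1 and 0.0535 for Scd2, the smallest of any member under any setting, and Fads1 followed in the fatty acid list with -0.48 (SE 0.34).

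Msmo1 led the sterol enzymes here as well, with 4.18, 4.41 and 3.67 at day 12 for hairpin 1, hairpin 2 and control, against 5.03, 4.87 and 4.46 at day 9. Its difference was -0.70 (SE 0.14, adjusted p = 0.131), with every day 12 array below every day 9 array. Sqle, a rate-limiting enzyme of the late route, had 2.02, 2.28 and 2.33 at day 12, against 2.71, 3.16 and 2.64 at day 9 (-0.63, SE 0.19). Idi1 had 1.38, 1.61 and 1.58 at day 12, against 2.15, 2.24 and 1.96 at day 9 (-0.59, SE 0.15). Fdft1 had 2.17, 2.14 and 2.44 at day 12, against 2.66, 3.37 and 2.47 at day 9 (-0.58, SE 0.26), where the control vector differed by only -0.02. For the transcription factor Srebf2 the levels were 5.02, 4.91 and 4.70 at day 12, against 5.40, 5.20 and 5.22 at day 9, a difference of -0.40 (SE 0.14, adjusted p = 0.329), with no overlap.

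The sterol enzymes had a median of -0.41, with 17 of 18 lower, the fatty acid enzymes -0.34, with 8 of 8 lower, and the regulators and the carrier -0.27, with 5 of 6 lower, beside 0.003 over all genes. By vector the sterol median was -0.51 for hairpin 1, -0.46 for hairpin 2 and -0.30 for control, so the control arrays showed the same direction. The fatty acid median was -0.28 for hairpin 1, -0.85 for hairpin 2 and -0.11 for control, beside -0.01, 0.07 and -0.02 over all genes in the same order of vectors. At an unadjusted p under 0.05, 13 members were lower and 0 higher at day 12, beside 4.78% and 7.26% of all genes. They were Mvd, Idi1, Sqle, Lss, Cyp51, Tm7sf2, Msmo1 and Dhcr7 of the sterol enzymes, Srebf2, Stard4, and Scd1, Scd2 and Elovl6. All day 12 arrays lay below all day 9 arrays for 15 members, beside 8.13% of all genes, and above them for 0 members, beside 8.94% of all genes. Day 12 was lower with all 3 vectors for 18 members, beside 19.6% of all genes. None of the 30 genes that passed the adjusted threshold (0.148%) was a member, nor was any of the 329 that passed when vector was a replicate block.

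**Figure D3:**
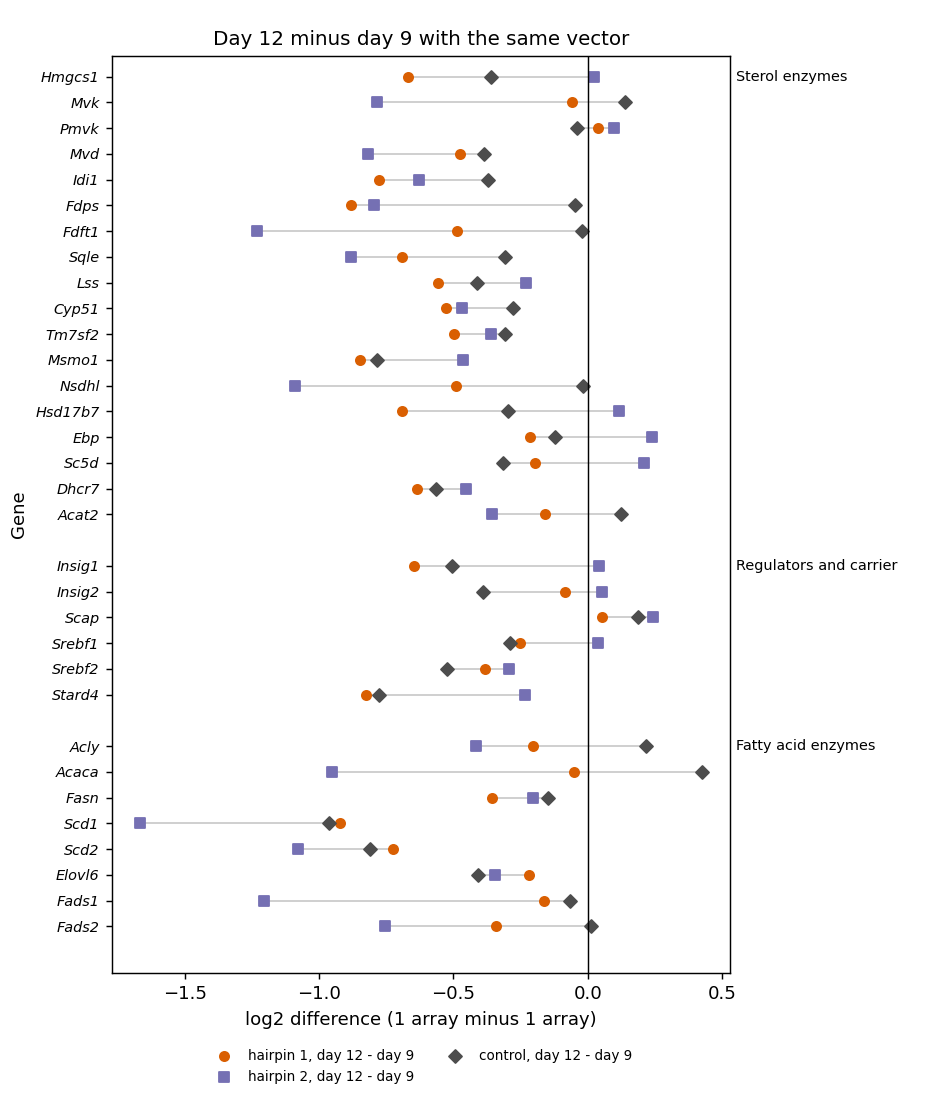
Log2 difference of the day 12 array from the day 9 array with the same vector (horizontal axis) for the 32 members in rows, with circles for hairpin 1, squares for hairpin 2 and diamonds for control. For 18 members all 3 marks lie left of 0, with Scd1 farthest left.

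Without the array of hairpin 2 at day 9, 29 of 32 members were lower at day 12 and 17 had an unadjusted p under 0.05 (7.48% of all genes). The sterol median was then -0.42 and the fatty acid median -0.16. Leaving out any 1 array left 28 to 30 of the 32 members lower, and the sterol median at -0.46 to -0.38. The difference between days cannot be told apart from the difference between slides.

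Between the hairpins no fatty acid enzyme reached an unadjusted p under 0.05. The fitted difference, hairpin 2 minus hairpin 1, was positive for 7 of 8 (beside 52.6% of all genes), with a median of 0.25, which ranged from 0.045 without hairpin 2 of day 9 to 0.49 without hairpin 2 of day 12. Fads1 stood at 0.74 with hairpin 2 and 0.54 with hairpin 1 at day 12, and at 1.94 with hairpin 2 and 0.71 with hairpin 1 at day 9, a fitted difference of 0.71 (SE 0.31, adjusted p = 0.448). Acaca stood at -1.88 with hairpin 2 and -2.11 with hairpin 1 at day 12, and at -0.93 and -2.05 at day 9 (0.68, SE 0.33). Fads2 stood at 0.45 with hairpin 2 and 0.21 with hairpin 1 at day 12, and at 1.21 and 0.55 at day 9 (0.45, SE 0.22). On the brightest probe of each of these genes the value was higher with hairpin 2 at both days and the gap was wider at day 9. The dimmer Acaca probes had fitted differences of 0.06, 0.06 and 0.41, the last on the faintest probe. The first was lower with hairpin 2 at day 12, and the second was lower with it at day 9.

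Among the sterol enzymes, Mvk had -0.0028 with hairpin 2 and -0.14 with hairpin 1 at day 12, and 0.78 and -0.08 at day 9 (0.50, SE 0.26). Fdps had 2.98 with hairpin 2 and 2.53 with hairpin 1 at day 12, and 3.77 with hairpin 2 and 3.41 with hairpin 1 at day 9 (0.41, SE 0.25). Nsdhl had a fitted difference of 0.39 (SE 0.27) from the levels given above. Ebp, the sterol isomerase on the X chromosome, was lower with hairpin 2, at 4.54 against 4.77 with hairpin 1 at day 12 and 4.30 against 4.99 at day 9 (-0.46, SE 0.19, adjusted p = 0.429). Of the 32 members 13 were higher with hairpin 2 at both days (32.2% of all genes) and 8 lower at both (26.5% of all genes). No member reached an unadjusted p under 0.05 in either direction, where 6.25% of all genes were higher and 5.42% lower, and none was among the 14 genes past the adjusted threshold (0.0692%). The 6 regulators, the carrier included, were all lower with hairpin 2 in the fit (47.4% of all genes), with a median of -0.16, beside 0.02 over all genes. At day 12 their median was -0.02, with 3 lower and 3 higher, and at day 9 it was -0.27, with all 6 lower. These values are from the brightest probe of each gene. The dimmer probes gave fitted differences of 0.19, 0.29 and 0.23 for Srebf2 and 0.04 for Insig1. They gave 0.04 and -0.13 for Stard4 and -0.22 for Insig2.

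For 18 members several probes were kept, which shows how far a value depends on the probe. On the array of hairpin 2 at day 9, 11 of the 28 dimmer probes (39.3%) stood over 0.5 higher, relative to the mean of hairpin 1 and control of that day, than the brightest probe of their gene did, and 5 (17.9%) stood over 0.5 lower. Over all genes 21.3% of 9975 such probes stood higher by that much and 18.3% lower. For Lss, the lanosterol synthase, the brightest probe gave -0.13 on that measure and the dimmer probes 1.05 and 1.06. Dhcr7, the last reductase of the route, gave 0.21 and 1.18. For Hmgcs1 the brightest gave -0.39 and the dimmer ones -0.23 and -1.49, and for Acaca they were 1.10, beside 0.72, 0.09 and -0.08. The dimmer probe had the sign of the brightest in 20 of 28 cases in the knockdown comparison (71.4%, beside 70.9% over all genes) and in 25 of 28 cases between the days (89.3%, beside 64.3%). Scd1, Scd2, Elovl6, Msmo1, Tm7sf2, Mvd and Sqle had 1 kept probe each, so no such check exists for them.

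**Figure D4:**
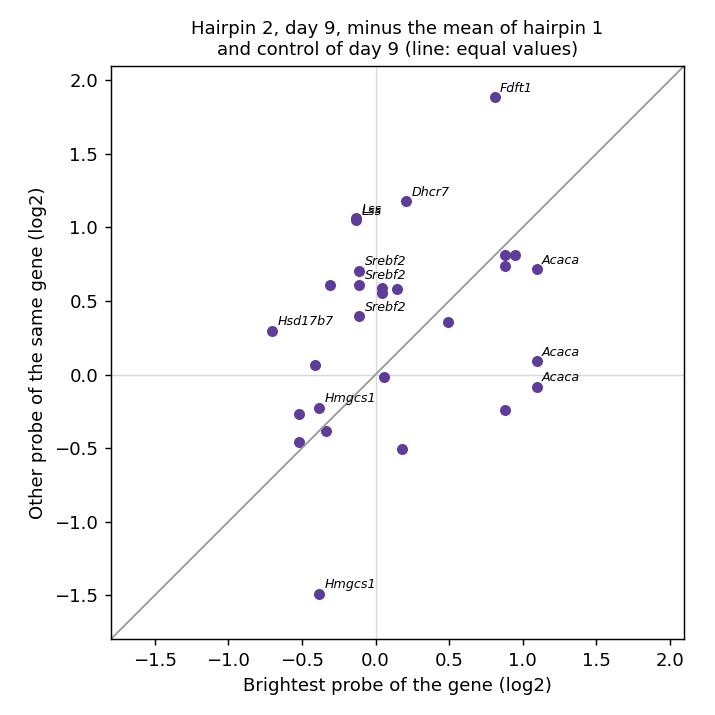
Each point is a dimmer probe of a member: its log2 level on the array of hairpin 2 at day 9 minus the mean of hairpin 1 and control of day 9 (vertical axis), against the same measure for the brightest probe of that gene (horizontal axis), with the line of equal values. Of 28 points, 11 lie over 0.5 above the line, among them both points of Lss and the point of Dhcr7, and 5 lie over 0.5 below it.

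Genes around the route were set beside the members, from lists for branches, transport, other fatty acid synthesis and oxidation. No gene of these lists passed the adjusted threshold for knockdown or day. In the isoprenoid branch, which serves protein prenylation, dolichol and ubiquinone, 12 of 14 genes were measured and had a median knockdown difference of 0.04 and a median day difference of 0.05. Dhdds, of dolichol synthesis, had -0.33 and Fnta, a subunit of the prenyltransferases, 0.24 in knockdown, and Nus1, the partner of the Dhdds protein, had 0.34 and Fnta -0.32 between the days. Sterol transport and LXR genes, 15 of 15 measured, had medians of 0.07 and -0.09. There Soat1, which esterifies cholesterol, had -0.88 and lies on chromosome 1 as well, and Abca1, which exports cholesterol and is induced through LXR, had 0.68. Between the days Mbtps2, a protease that cuts SREBP, had -0.32 and Npc2, a lysosomal sterol carrier, -0.24.

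Other genes of fatty acid synthesis, 22 of 24 measured, had medians of 0.07 for knockdown and 0.03 for day. Thrsp, a regulator of lipogenesis, had a knockdown difference of 0.97 (adjusted p = 0.266), and Acsl4, an acyl-CoA synthetase, -0.54. Between the days Scd3, a further desaturase paralog, had 0.96, opposite in sign to Scd1 and Scd2, and Acsl4 had -0.41. Fatty acid oxidation genes, 15 of 15 measured, had medians of 0.02 for each. Cpt1a, the gate of fatty acids into mitochondria, had a knockdown difference of 0.83 (adjusted p = 0.275) and Ehhadh, a peroxisomal enzyme, 0.46. Acadl had -0.37 and Hadhb 0.15 between the days. Pdss2, Coq3, Elovl3 and Scd4 of these lists had no probe that passed the filter.

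No cell type marker passed the adjusted threshold in the knockdown comparison, where the smallest adjusted p in limma was 0.275 for fibroblast, 0.148 for visceral endoderm, 0.219 for pluripotency, 0.0897 for neural and 0.213 for germ cell markers. Positive fitted differences, which 49.8% of all genes had, were found for all 8 fibroblast and feeder markers (median 1.15), all 7 measured visceral endoderm markers (0.92) and 6 of 7 pluripotency markers (0.37), while 7 of 9 germ cell markers were negative (median -0.13). The summed linear signal of the fibroblast markers, in units of the 75th percentile, was 8.68 to 15.5 on knockdown arrays and 6.11 to 11.3 on control arrays. The endoderm sum was 1.79 to 2.62 on knockdown arrays and 0.979 to 1.05 on control arrays, the pluripotency sum was 124 to 140 on knockdown and 103 to 114 on control arrays, and the germ cell sum was 629 to 748 on knockdown and 538 to 715 on control arrays. Of the neural markers 3 of 4 were positive (median 0.43). Between hairpin 2 and hairpin 1 all 8 fibroblast markers were positive (median 0.84, smallest adjusted p in limma 0.167), beside 52.6% of all genes. Of the 8 fibroblast markers, 7 or 8 were well above background on each knockdown array and 6 or 7 on each control array, all 7 endoderm markers were so on all 6 arrays, and Ttr had no probe that passed the filter. The part of such cells in the values of the lipid genes was not tested. Between the days, where the members differed most, the medians of these markers were -0.25 for fibroblast, 0.20 for endoderm, -0.15 for pluripotency and -0.10 for germ cell genes. The fibroblast markers ranged from -1.35 to 2.80 between the days, with a median of -0.35 in hairpin 1, 0.39 in hairpin 2 and -0.79 in the control, where 7 of 8 were lower.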

How the data were processed

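Total RNA of 6 samples was labelled with Cy3 and measured on Agilent 1-colour whole-genome arrays, 1 array a sample, with 41174 probes beside the controls. Per the file headers, the deposited scanner files hold spot intensity values from Feature Extraction with background subtracted and no scaling between arrays. A deposited table holds a ratio, background-subtracted signal over a number that gives each column a median of 1, and 8.27% to 10.4% of entries sit at a floor. All 41529 entries were matched to 1 spot each through their quality scores at a tolerance of 1e-06, with ties settled by the identifier of the entry. The match places entries on spots and does not itself test how the ratio was made. The deposited quality score of each spot, whose making is not given in the sources used here, served only for that match.

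Processed intensities were taken to log2, the 75th percentile of each array was set to 0, flagged outlier spots were left out, spots of a probe were averaged, and 30214 probes that were well above background on 2 or more arrays were kept. By RefSeq tables of GRCm38.p6, 22944 probes were named through their accession, 9759 through a symbol or synonym, and 8471 kept the name on the array. The brightest probe stood for a gene. Models were fitted over all 20234 genes with limma 3.58.1 in R 4.3.3, two-sided, with Benjamini-Hochberg adjustment, and the scripts were tested on simulated data. Knockdown and day came from 1 fit with both terms, knockdown at each day and the difference between days from 4 group means, which takes the spread of a day's lone control from the hairpin pairs, and the hairpins from a fit with day and vector. Of the 32 members, 25 had a promoter entry, and Fdps, Fdft1, Sqle, Stard4, Scd1, Scd2 and Fads1 had none.

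Deviations from the day mean were correlated across days for each vector: r was 0.377 for control, 0.543 for hairpin 1 and 0.262 for hairpin 2. The day mean holds knockdown and control arrays, so a knockdown effect shared by the days would give a positive r too. These values therefore cannot show whether vectors pair the arrays. The vector was also fitted as a replicate block. The number of arrays limits the precision. Members and lists were chosen with earlier results of these data known. Levels were printed for the 4 sterol and 3 fatty acid enzymes of largest difference in the knockdown, day and hairpin comparisons and for Insig1, Srebf1 and Srebf2, and of the other lists the 2 genes of largest difference were named. Alternatives were the background correction, normalization, filter, mean of probes, prior, deposited table, replicate block and each array left out.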

Additional observations from a re-analysis of the deposited data

Results flagged for a closer look

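For 5 members the knockdown difference on the brightest probe was negative at day 12 and positive at day 9 with both hairpins. The dimmer Fdps probe did not have this pattern, and was above the control in every pair (fitted difference 0.31). The dimmer Fdft1 probe and the dimmest Nsdhl probe did not have it either, while the other Nsdhl probes did. The dimmer Fdft1 probe was faint, at -7.74 to -5.28, so it cannot decide this. Sqle and Acly had 1 kept probe each. The knockdown difference of day 12 minus that of day 9 was -0.79 for Fdps, -0.84 for Fdft1, -0.48 for Sqle, -0.77 for Nsdhl and -0.53 for Acly on the log2 scale. The difference was tested in limma and passed for none of them (adjusted p = 0.9998 for each). At day 9 hairpin 2 gave the wider gap from the control for all 5.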

How the results depend on the processing

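No member passed the adjusted threshold in any of 1408 values over the knockdown, day and hairpin comparisons and their alternatives, and the smallest adjusted p was 0.0514, for Scd1 between days with the vector as a replicate block. For Scd1, Scd2, Elovl6, Msmo1, Tm7sf2 and Mvd the knockdown difference was positive in every alternative run. Genes called for knockdown numbered 0, against 8 with the filter on all 6 arrays, 2 with normexp, 2 with a trend and robust prior, 1 with the mean of probes and 20 with the replicate block. For day they numbered 30, against 1 with normexp, 0 without a filter, 329 with the replicate block and 0 to 19 with 1 array left out. The per-day counts of 0 became 1 on the deposited table and 315 with the replicate block at day 9, 324 at day 12, and 63 for the difference between days. For the hairpins 14 became 106 with normexp, 1 with quantile scaling, 1 without a filter, 51 with the filter on all 6 arrays, 2 with the mean of probes, 71 with the prior, 3 on the deposited table and 0 to 820 with 1 array left out. The sterol median was 0.11 to 0.33 for knockdown with 1 array left out, 0.43 with the mean of probes and 0.41 on the deposited table for day 9, -0.33 with the mean of probes for the difference between days, and 0.18 with the mean of probes and 0.023 to 0.17 with 1 array left out for the hairpins. The fatty acid median of the difference between days was -0.63 to -0.0397 with 1 array left out. The cause was not tested for any of these. In the replicate block the spread between hairpins is no part of the error, and it left 2 residual degrees of freedom for knockdown and day and 1 for the per-day comparisons.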
